A study of Homo sapiens with 6 samples.

Results

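The IFIT family comprised 4 genes, IFIT1 (ENSG00000185745.9), IFIT2 (ENSG00000119922.8), IFIT3 (ENSG00000119917.13) and IFIT5 (ENSG00000152778.8), of the 32192 genes in the count table. The rule took the rows that carry these symbols, and the family was chosen from earlier results of the same libraries, with its difference between the groups already known. Levels and differences of the 4 genes between the groups are therefore given as a description, no p is given for them, and nothing is read from whether they passed a threshold. RNA-seq was performed on A549 cells, an established line from a human lung adenocarcinoma, with 3 libraries of cells transfected with an APEX1 expression plasmid (APEX1-OE) and 3 libraries of cells given a control plasmid (Ctrl). APEX1 is a DNA repair endonuclease and redox factor, and its cDNA was placed in the pIRES-hrGFP-1a vector, in which a green fluorescent protein is made from the same transcript. The transfection was transient, both groups carried plasmid DNA, and untransfected cells were not among the libraries analysed here. Nothing in the sources used here says that the libraries of a group came from separate cultures, so errors between them may be technical.

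IFIT proteins are interferon-induced proteins built from tetratricopeptide repeats, and they act inside the cell against viral RNA. IFIT1 binds RNA caps that lack ribose methylation and blocks their translation. IFIT2 and IFIT3 form complexes with IFIT1, and IFIT3 stabilises it. IFIT5 binds uncapped RNA with phosphate groups at its end. Their genes are among the most strongly induced targets of type I and type III interferon, which act through receptors, the kinases JAK1 and TYK2, and a transcription factor complex. That complex binds the interferon-stimulated response element in the promoters of its targets. IRF3, activated by sensors of foreign nucleic acid, can induce IFIT genes through similar elements without interferon.

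The 4 genes lie in 1 cluster on the plus strand of chromosome 10 in GRCh38. IFIT2 runs from 89283694 to 89309271, IFIT3 from 89327307 to 89377473, IFIT1 from 89392546 to 89406487 and IFIT5 from 89414568 to 89421605. The paralog IFIT1B (ENSG00000204010.3) lies between IFIT3 and IFIT1, from 89378056 to 89385205, and had between 1 and 8 counts in any library. The pseudogene IFIT6P lies inside the span of IFIT3 and had at most 2 counts. The family members are paralogs with related sequence, and how reads that fit more than 1 of them were counted is not known beyond the use of uniquely mapped reads. The lysosomal lipase gene LIPA lies on the other strand, from 89213569 to 89414557, and shares 159 exon bases with the IFIT genes, where reads can be told apart only if the strand was used in counting. On the same strand as IFIT2, the noncoding RP11-149I23.3 shares 524 exon bases with it and had between 5 and 8 counts.

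The response element was looked for as its core, TTTCNNTTTC on the plus strand or GAAANNGAAA on the other, in RefSeq promoter windows of GRCh38.p14 that run from 250 bases before to 50 bases after a transcript start. RefSeq windows were matched for IFIT1, IFIT3, IFIT5 and IFIT1B, and IFIT3 had a pair of starts. The stretches that hold the cores are shown because they are what these promoters share, with the cores in capitals, plus strand, 5′ to 3′.
IFIT1, chr10:89392497-89392539: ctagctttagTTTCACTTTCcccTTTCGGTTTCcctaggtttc
IFIT3, first start, chr10:89327831-89327894: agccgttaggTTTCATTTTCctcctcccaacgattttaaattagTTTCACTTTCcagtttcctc
IFIT3, second start, chr10:89332425-89332487: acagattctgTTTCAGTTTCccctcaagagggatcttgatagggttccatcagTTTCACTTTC
IFIT5, chr10:89414513-89414567: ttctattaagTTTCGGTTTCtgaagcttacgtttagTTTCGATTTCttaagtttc

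Each of these windows held 2 cores upstream of its start. In IFIT1 they began 116 and 103 bases before the start, and in IFIT5 45 and 19 bases before it. In IFIT5 another match of the core, which begins 4 bases before the start and straddles it, is not shown. The cores of IFIT3 began 156 and 122 bases before its first start and 94 and 51 bases before its second, and the last 4 bases of the second stretch are exon of another transcript. The window of IFIT1B held 0 cores. The core occurred in 3.57% of 35116 RefSeq windows, in 2.99% of 15539 windows of tested genes, and in 53.3% of 60 windows of the antiviral effector genes described later. A match is a description of the letters and does not show binding.

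Before the levels, the libraries themselves have to be described. The total counts lay between 28131955 and 41009197. APEX1 FPKM (fragments per kb of transcript, scaled to the mapped reads) was 617.5, 680.3 and 768 in the APEX1-OE libraries and 129, 126 and 124 in those of Ctrl, so every library matched its label. The first principal component held 72.6% of the variance and did not follow the groups. On one side lay APEX1-OE replicate 1 and the first and second Ctrl replicates (library set 1), and on the other Ctrl replicate 3 and the remaining APEX1-OE libraries, replicates 2 and 3 (library set 2). These sets come from the data and are not named in the labels. Summed CPM (counts scaled to library size) of 6 epithelial markers lay between 16260 and 23260 in APEX1-OE and between 15950 and 20720 in Ctrl, and that of 9 immune, stromal and endothelial markers between 10.8 and 14.7 and between 13.7 and 15.5. The markers PTPRC, CD3E, PECAM1 and VWF had at most 10 counts in any library.

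All 4 IFIT genes were expressed in every library of both groups, including the control. Their levels followed the library set more than the plasmid, and the groups overlapped for each of them. IFIT1, the cap-binding member, had FPKM values of 56.3, 143.18 and 178 with APEX1-OE and of 90.8, 81.7 and 143.27 with Ctrl, in the order of replicates 1, 2 and 3. APEX1-OE replicate 1 was the lowest of all 6 libraries, APEX1-OE replicate 3 the highest, and Ctrl replicate 3 stood level with APEX1-OE replicate 2. Mean FPKM was 126 ± 62.6 (SD, n = 3) with APEX1-OE against 105 ± 33.2 (SD, n = 3) with Ctrl, a ratio of 1.20.

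IFIT2, which forms complexes with IFIT1 and IFIT3, stood at 38.5, 99.2 and 113 FPKM in APEX1-OE and at 37.9, 37.0 and 82.0 FPKM in Ctrl, replicates 1, 2 and 3. The 3 libraries of set 1 lay at one level whatever the plasmid, and the 3 libraries of set 2 lay above them. Mean FPKM was 83.5 ± 39.6 (SD, n = 3) with APEX1-OE against 52.3 ± 25.7 (SD, n = 3) with Ctrl, a ratio of 1.60, the highest of the family.

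IFIT3, the stabilising partner of IFIT1, stood at 66.4, 131 and 152 FPKM in APEX1-OE and at 67.7, 64.4 and 119 FPKM in Ctrl, replicates 1, 2 and 3. As for IFIT2, set 1 was flat and set 2 was high. Mean FPKM was 116 ± 44.6 (SD, n = 3) with APEX1-OE against 83.8 ± 30.7 (SD, n = 3) with Ctrl, a ratio of 1.39.

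IFIT5, which binds uncapped RNA, was the least abundant per length. It stood at 6.57, 13.3 and 16.4 FPKM in APEX1-OE and at 7.36, 8.39 and 13.6 FPKM in Ctrl, replicates 1, 2 and 3. APEX1-OE replicate 1 was again the lowest library and APEX1-OE replicate 3 the highest. Mean FPKM was 12.1 ± 5.02 (SD, n = 3) with APEX1-OE against 9.77 ± 3.33 (SD, n = 3) with Ctrl, a ratio of 1.24. Since RNA was taken from whole cultures, fewer cells that express a gene and less RNA per cell cannot be told apart. The smallest count behind these values was 958, for IFIT5, at which counting alone gives an error of 3.23%, and at the lowest counts of the other members it was between 1.03% and 1.49%.

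**Figure D1:**
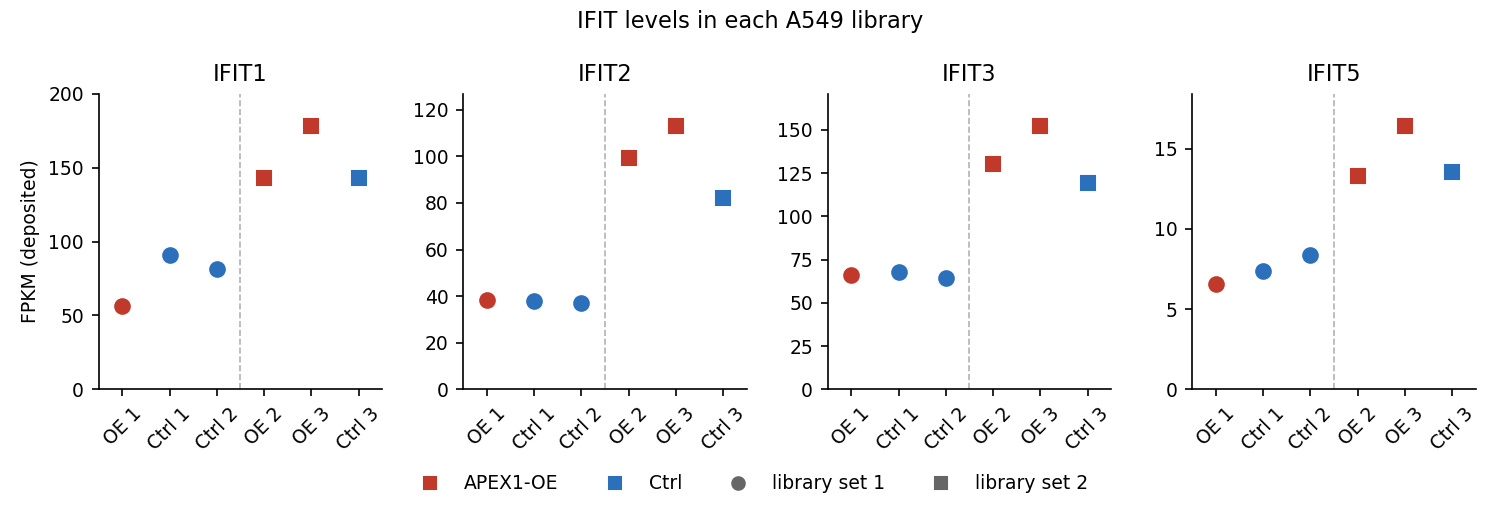
Deposited FPKM (linear axis from 0) of IFIT1, IFIT2, IFIT3 and IFIT5 in each library, 1 point per library, red for APEX1-OE (OE) and blue for Ctrl, circles for library set 1 and squares for set 2, with a dashed line between the sets. In each panel the 3 squares lie above the 3 circles, and both colours occur on either side of the line.

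Between the library sets the members did not overlap. This division came from the whole transcriptome, the IFIT genes included, so the lack of overlap is not a separate result. The share of all genes without overlap between the sets was not counted. Mean FPKM of IFIT1 was 76.3 ± 17.9 (SD, n = 3) in set 1 and 155 ± 20.0 (SD, n = 3) in set 2, a ratio of 2.03. The ratio of set 2 to set 1 was 2.59 for IFIT2, 2.02 for IFIT3 and 1.94 for IFIT5. Each of these ratios exceeded the ratio of APEX1-OE to Ctrl for the same gene.

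Within set 1, the APEX1-OE library stood at 0.653 times the mean of both Ctrl libraries for IFIT1 and at 0.834 times for IFIT5, while IFIT2 and IFIT3 were at 1.03 and 1.01 times. Within set 2, the mean of both APEX1-OE libraries stood at 1.12 times the Ctrl library for IFIT1, 1.29 times for IFIT2, 1.19 times for IFIT3 and 1.09 times for IFIT5. IFIT2 and IFIT3 were thus at or above Ctrl in both sets on the FPKM scale, and IFIT1 and IFIT5 lay below Ctrl in one set and above it in the other. Each set held a single library of one group, so these ratios have no replicate check of their own.

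On the log2 scale, in edgeR's fit of the counts with the condition as the only term, the difference between APEX1-OE and Ctrl was 0.21 ± 0.35 (SE) for IFIT1, 0.64 ± 0.40 for IFIT2, 0.44 ± 0.30 for IFIT3 and 0.27 ± 0.32 for IFIT5. The median over the 16971 genes tested was 0.033, and 76.7%, 98.0%, 92.8% and 82.0% of them had a smaller difference than IFIT1, IFIT2, IFIT3 and IFIT5. None of the 4 passed an adjusted p of 0.05 (Benjamini-Hochberg) in edgeR's quasi-likelihood test, and APEX1 alone did, which is 0.00589% of the genes tested. The number of members whose groups did not overlap with APEX1-OE higher was 0 of 4, where 1.38% of the genes tested were of that kind.

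With the library set as a term in the fit, the difference was -0.17 ± 0.13 (SE) for IFIT1, 0.26 ± 0.091 for IFIT2, 0.18 ± 0.088 for IFIT3 and -0.011 ± 0.11 for IFIT5. The standard error fell for every member, and the direction turned for IFIT1 and, within its standard error of 0, for IFIT5. The set was drawn from these same libraries, the IFIT genes included, so the smaller standard errors are not an independent gain in precision. On the first principal component APEX1-OE replicate 1 lay at -58.5, and the Ctrl libraries of its set at -32.7 and -31.1. A term for the set does not take up such a difference within a set. In that fit 0 of the 4 members passed, where 0.0236% of the genes tested did. Leaving out a library moved the members together. Without APEX1-OE replicate 3 the difference of IFIT1 was -0.072 and that of IFIT2 0.41, and without Ctrl replicate 3 that of IFIT2 was 1.05. Without APEX1-OE replicate 1 the difference of IFIT1 was 0.50.

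**Figure D2:**
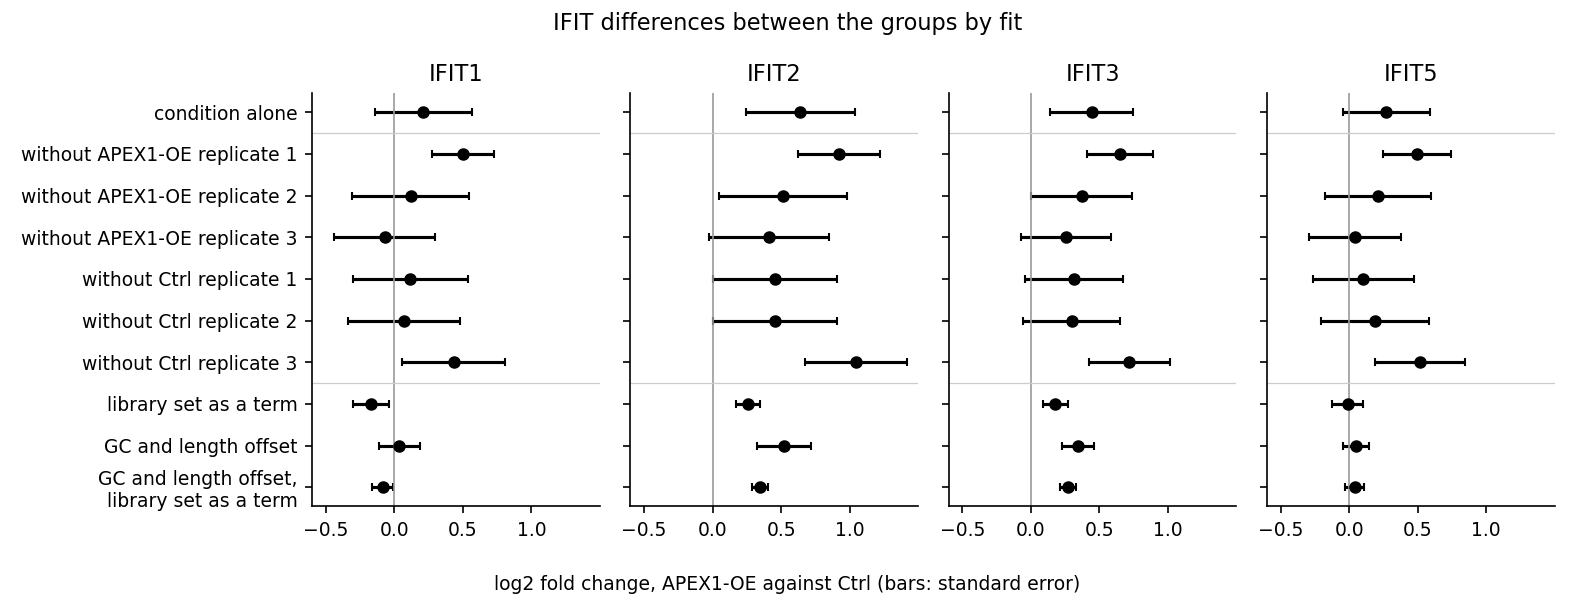
Log2 fold change of APEX1-OE against Ctrl (horizontal axis) for each IFIT gene in edgeR fits, points with bars of 1 standard error: the condition alone, each library left out in turn, and fits with the library set as a term, a GC and length offset, or both. IFIT2 and IFIT3 stay right of 0 in every fit drawn, IFIT1 and IFIT5 cross it, and for each gene the bar is shortest with the offset and the library set together.

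The difference between the library sets went with base composition. The exons of IFIT1, IFIT2, IFIT3 and IFIT5 had a GC content of 42.2%, 42.7%, 43.4% and 38.8%, all below the median of 48.8% over the genes tested. The log2 difference of set 2 over set 1 was 0.92 ± 0.13 (SE) for IFIT1, 1.09 ± 0.091 for IFIT2, 0.77 ± 0.089 for IFIT3 and 0.77 ± 0.11 for IFIT5. It was smaller in 86.2%, 92.6%, 80.1% and 80.4% of the genes tested. Over 16746 genes with a known GC content, GC and set difference correlated with Pearson's r = -0.78 and Spearman's rho = -0.80. This is a description across genes that share the same 6 libraries.

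After an offset per gene and library for GC content and length, the set difference was 0.32 for IFIT1, 0.55 for IFIT2, 0.23 for IFIT3 and 0.029 for IFIT5. The difference between APEX1-OE and Ctrl was then 0.037 for IFIT1, 0.52 for IFIT2, 0.34 for IFIT3 and 0.050 for IFIT5. With the offset and the library set together it was -0.087 ± 0.080 (SE), 0.34 ± 0.057, 0.27 ± 0.059 and 0.039 ± 0.072, in the same order. In this last fit, chosen after seeing the data, 0.119% of 16746 genes passed an adjusted p of 0.05. IFIT2 was the only member among them and passed in no other fit, so nothing is read from it. What made the libraries differ by GC content was not tested.

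**Figure D3:**
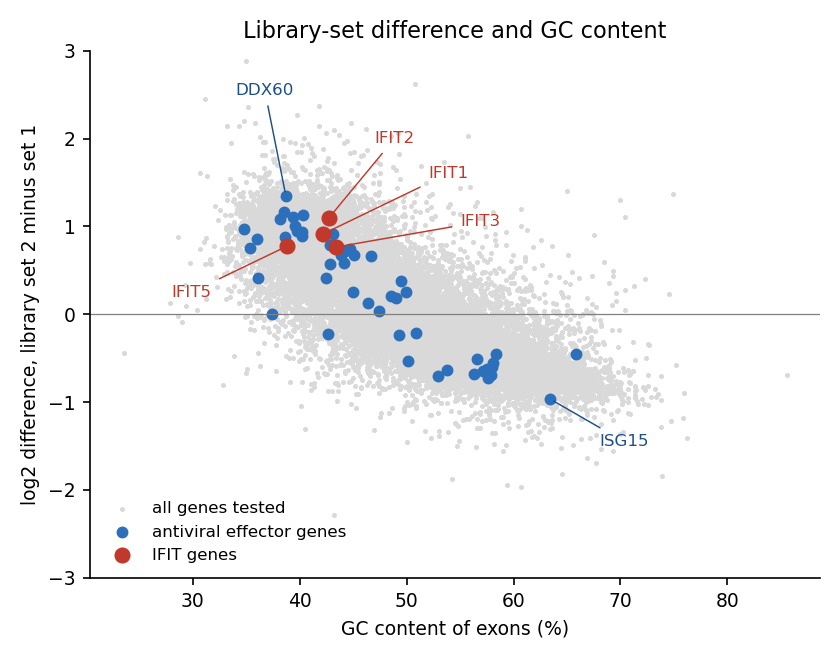
GC content of exons (horizontal axis, %) against the log2 difference of library set 2 minus set 1 (vertical axis), with all genes tested in grey, antiviral effector genes in blue and the IFIT genes in red. The IFIT genes lie at low GC and above 0 within the grey cloud, DDX60 at 1.35 is the highest effector and ISG15 at -0.97 the lowest, and 3 genes beyond ±3 are not drawn.

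The order of the levels per length was the same in 5 of 6 libraries (83.3%), with IFIT1 above IFIT3, IFIT3 above IFIT2, and IFIT5 last. In APEX1-OE replicate 1, IFIT3 stood above IFIT1. Within each group the ranges over libraries overlapped between IFIT1 and IFIT3 and between IFIT3 and IFIT2. Within libraries, the ratio of IFIT1 to IFIT3 ran from 0.849 to 1.34, on both sides of 1. IFIT3 stood above IFIT2 in each of the 6 libraries, with a ratio of IFIT2 to IFIT3 between 0.559 and 0.760 in FPKM. IFIT5 lay below the range of every other member. With CPM per kb of exons in the annotation in place of FPKM, that order held in 50% of the libraries, and in the 3 libraries of set 2 IFIT2 stood above IFIT3.

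Ratios of FPKM between members within a library remove a difference that all of them share. They were computed after the levels had been seen, and 3 of 6 did not overlap between the groups. The ratio of IFIT1 to IFIT2 was 1.46, 1.44 and 1.58 with APEX1-OE and 2.40, 2.21 and 1.75 with Ctrl, in the order of replicates 1, 2 and 3. All 3 APEX1-OE libraries lay below all 3 Ctrl libraries, in both library sets, with means of 1.49 ± 0.071 (SD, n = 3) and 2.12 ± 0.33 (SD, n = 3). Of all genes set against IFIT2 in the same way, 16.1% had a ratio that was lower in APEX1-OE without overlap, so such a pattern was common.

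The ratio of IFIT1 to IFIT3 was 0.849, 1.10 and 1.17 in APEX1-OE and 1.34, 1.27 and 1.20 in Ctrl, replicates 1, 2 and 3. Here too every APEX1-OE library lay below every Ctrl library, by little in set 2, and 14.3% of all genes set against IFIT3 had that pattern. The ratio of IFIT3 to IFIT5 was 9.73 ± 0.42 (SD, n = 3) with APEX1-OE against 8.55 ± 0.79 (SD, n = 3) with Ctrl. It was higher in APEX1-OE without overlap, a pattern that 1.1% of all genes had against IFIT5. The nearest libraries of the groups, at 9.28 with APEX1-OE and 9.20 with Ctrl, differed by less than the counting error of IFIT5. The ratios of IFIT2 to IFIT3, IFIT1 to IFIT5 and IFIT2 to IFIT5 overlapped. That of IFIT2 to IFIT3 was 0.580, 0.760 and 0.742 in APEX1-OE and 0.559, 0.575 and 0.688 in Ctrl, higher in set 2 than in set 1.

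**Figure D4:**
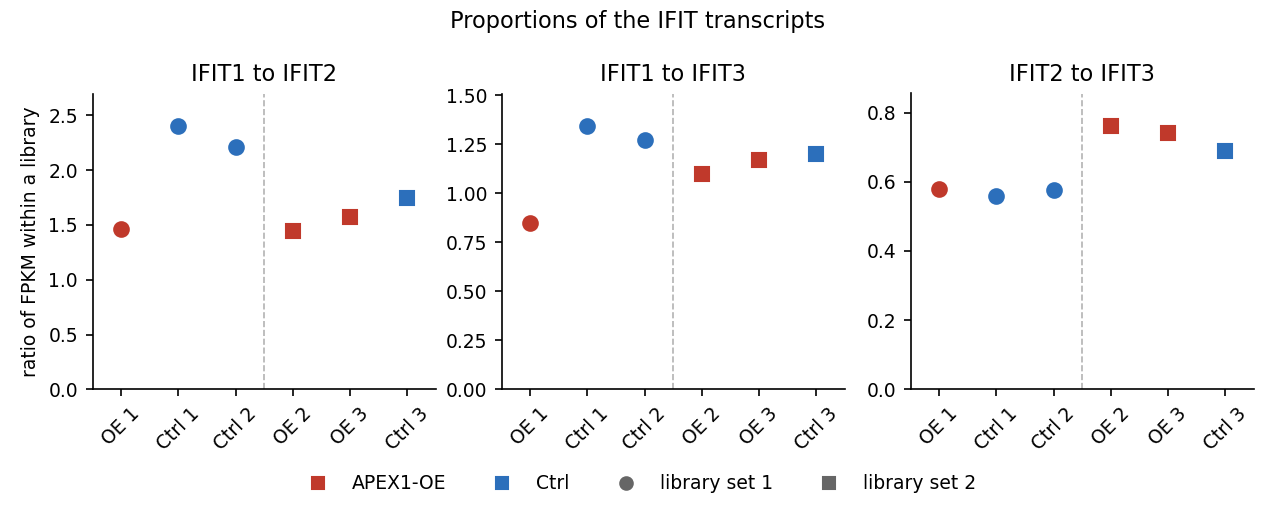
Ratio of FPKM within each library (linear axis from 0) of IFIT1 to IFIT2, IFIT1 to IFIT3 and IFIT2 to IFIT3, 1 point per library, red for APEX1-OE (OE) and blue for Ctrl, circles for library set 1 and squares for set 2. In the first and second panels every red point lies below every blue one, from 1.44 to 1.58 against 1.75 to 2.40 for IFIT1 to IFIT2, and in the third the squares lie above the circles.

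The pathway that leads to the IFIT genes was described from lists of ligands, receptors with JAK-STAT components, sensors with adaptors and IRFs, and negative regulators. Of 39 genes, 38 were in the table and 35 passed the filter on low counts. With the condition alone, 0 of 35 passed an adjusted p of 0.05 in edgeR, and 1, IFNL3, had an unadjusted p under 0.05, where 118 of 16971 genes tested had one. The median log2 difference of the 35 was 0.16, with 28 of 35 (80%) above 0, against a median of 0.033 and 57.5% over all genes tested. DESeq2 and limma-voom also called 0 of them. Without APEX1-OE replicate 1 the median fell to 0.00072. In 4 of them the groups did not overlap with APEX1-OE higher, against 1.38% of all genes tested. With the library set as a term the median was 0.14 and 24 of 35 (68.6%) lay above 0, against 0.0081 and 51.6% over all genes tested. In that fit, 11 of 35 had an unadjusted p under 0.05 in edgeR's test, against 1973 of 16971 genes tested. The fit was chosen after seeing the data and leaves differences within a set.

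Of the interferon ligands, 5 passed the filter, and all 5 had a log2 difference above 0, as had 4 of them with the library set as a term, where that of IFNE was -0.16. IFNB1, a type I interferon, stood at 5.47, 5.25 and 4.92 CPM in APEX1-OE and 4.58, 3.58 and 3.21 CPM in Ctrl, replicates 1, 2 and 3. Every APEX1-OE library lay above every Ctrl library, with a difference of 0.46 ± 0.23 (log2, SE). IFNL1, a type III interferon, stood at 31.2, 16.7 and 13.4 CPM in APEX1-OE and 15.3, 13.1 and 10.0 CPM in Ctrl, with overlap, and its difference was 0.67 ± 0.35.

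IFNL3 stood at 9.80, 6.64 and 6.54 CPM in APEX1-OE and 4.76, 4.71 and 3.46 CPM in Ctrl. Its groups did not overlap, nor did those of IFNL2, and these genes are near-identical copies whose reads counting may split. With the library set as a term the difference of IFNL3 was 0.99 ± 0.14 (log2, SE; adjusted p = 0.0492 from edgeR), and it was the only gene of the 35 that passed. With the GC and length offset as well, IFNL1 and IFNL3 passed, with adjusted p values of 0.00747 and 0.00802 from edgeR. Both fits were chosen after seeing the data, and 0.0236% and 0.119% of genes passed in them. Neither IFNL1 nor IFNL3 passed with the condition alone. IFNA1 and IFNA2 had at most 2 and 3 counts in any library.

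Of the receptor and JAK-STAT genes, 8 of 9 passed the filter, and their median difference was -0.0083. STAT2 lay between 135 and 151 CPM in all libraries, with a set difference of -0.11 (log2). The receptor chain IFNAR1 had a difference of 0.21 ± 0.35 (log2, SE), which turned to -0.088 with the library set as a term, and IFNLR1, the chain specific to type III interferon, of -0.23 ± 0.23. IRF9 had between 1 and 4 counts, while the gene ENSG00000259529.1, which shares 1544 of its 6471 exon bases on the same strand, had between 4106 and 5856, so the level of IRF9 could not be read from this table.

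Of the sensors, adaptors and IRFs, 15 passed the filter, 13 had a difference above 0, and the median was 0.16. DDX58, which encodes the RNA sensor RIG-I, stood at 124, 259 and 261 CPM in APEX1-OE and 123, 121 and 209 CPM in Ctrl, replicates 1, 2 and 3. IFIH1, which encodes the RNA sensor MDA5, stood at 21.6, 58.7 and 61.3 CPM in APEX1-OE and 24.2, 26.2 and 50.8 CPM in Ctrl. Both were high in set 2 and low in set 1, like IFIT2.

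IRF3 and IRF7, the factors downstream of the sensors, ran the other way between the sets. IRF3 stood at 234, 127 and 111 CPM in APEX1-OE and 177, 175 and 104 CPM in Ctrl, replicates 1, 2 and 3, and IRF7 at 426, 244 and 183 CPM and at 299, 289 and 179.7 CPM. Their GC contents were 59.5% and 67.2%. MB21D1, which encodes the DNA sensor cGAS, was the only gene of this list without overlap, at 10.8, 12.5 and 11.5 CPM in APEX1-OE and 8.67, 10.2 and 10.0 CPM in Ctrl, and its difference was 0.26 ± 0.21 (log2, SE).

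Of the negative regulators, 7 passed the filter, 6 had a difference above 0, and the median was 0.080. USP18, which dampens signalling at the type I receptor, had a difference of 0.055 ± 0.18 (log2, SE), and SOCS1, an inhibitor of JAK kinases, of 0.26 ± 0.36. TREX1, which degrades cytosolic DNA, had the only negative one, -0.052 ± 0.31. With the library set as a term 4 of 7 lay above 0: TREX1 turned to 0.19, while PIAS1, IRF2 and SAMHD1 turned to -0.055, -0.094 and -0.16. With the GC and length offset as well, these genes stood at 0.059, 0.025, -0.029 and -0.079, in that order. In edgeR's test 0 of the 7 were called, and 0 had an unadjusted p under 0.05, where 118 of 16971 genes tested had one.

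The IFIT genes were also set beside 50 other antiviral effector genes of the interferon response. In edgeR's test 0 of 50 were called and 0 had an unadjusted p under 0.05, where 118 of 16971 genes tested had one. DESeq2 and limma-voom called 0, and the differences of the 50 ran from -0.089 to 0.73 with a median of 0.21. Of the 50, 46 (92.0%) had a difference above 0, against 57.5% of all genes tested. In 1, OAS2, the groups did not overlap with APEX1-OE higher, a share near the 1.38% of all genes tested. The highest were SAMD9 at 0.73 ± 0.34 (log2, SE), RSAD2 at 0.64 ± 0.33, CXCL11 at 0.63 ± 0.38, DDX60 at 0.63 ± 0.48 and DDX60L at 0.62 ± 0.42, and IFIT2 had a difference of the same size as RSAD2, the radical enzyme viperin. The lowest were RTP4 at -0.089 ± 0.25, IFI6 at -0.080 ± 0.27 and UBE2L6 at -0.0034 ± 0.23. With the GC and length offset and the library set together, the median was 0.155, and IFI6 and UBE2L6 stood at 0.086 and 0.079. With the library set alone as a term the median was 0.14 and 37 of 50 lay above 0, IFI6 and UBE2L6 among them at 0.15 and 0.16. Over all genes tested the median was then 0.0081, with 51.6% above 0. In that fit, 16 of 50 had an unadjusted p under 0.05 in edgeR's test, against 1973 of 16971 genes tested. The fit was chosen after seeing the data and leaves differences within a set. After adjustment 0 of the 50 passed.

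The effector genes split by GC content between the library sets. Of 31 effectors below the median GC content of the genes tested, 30 were higher in set 2, with a median log2 difference of 0.75, whereas of 19 at or above it 3 were higher, with a median of -0.55. Over the 50 effectors, GC content and set difference correlated with Pearson's r = -0.87 and Spearman's rho = -0.84, as a description over genes measured in the same libraries. The IFIT genes stood with the low-GC effectors. Of 44 effector genes with a promoter window, 28 held a response element core and had a median difference between APEX1-OE and Ctrl of 0.20, and the 16 without a core had one of 0.23.

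The machinery on which IFIT proteins act was described from a list of cap enzymes and a list of eIF3 subunits. Of 6 genes of cap synthesis and methylation 0 were called in edgeR's test and 0 had an unadjusted p under 0.05, with a median difference of 0.15 and 5 of 6 above 0. With the library set as a term the median was -0.051, with 2 of 6 above 0. CMTR1, which adds the ribose methyl group that IFIT1 senses, had a difference of 0.049 ± 0.21 (log2, SE). Of the 13 subunits of eIF3, the initiation factor that IFIT1 and IFIT2 bind, 0 were called, 0 had an unadjusted p under 0.05, and the median was -0.025. Over all genes tested, 118 of 16971 had an unadjusted p under 0.05 in edgeR's test.

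LIPA, which overlaps the cluster on the other strand, stood at 88.4, 121 and 153 CPM in APEX1-OE and 119, 120.2 and 133 CPM in Ctrl, replicates 1, 2 and 3. Its difference was -0.040 ± 0.23 (log2, SE), with a set difference of 0.39. CH25H, a cholesterol hydroxylase gene beyond LIPA that interferon also induces, stood at 2.77, 2.43 and 1.83 CPM in APEX1-OE and 1.71, 1.12 and 1.07 CPM in Ctrl. Every APEX1-OE library lay above every Ctrl library, a pattern that 1.38% of the genes tested had. The difference of CH25H was 0.85 ± 0.29 (log2, SE) from 37 to 103 counts per library (edgeR adjusted p = 1.0).

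The members followed each other over the 6 libraries, with Pearson's r of log2 CPM between 0.89 and 0.998 for the pairs. Among the genes whose log2 CPM was most like the family mean were TDRD3, CHUK, GBP3, LTN1 and SPDL1, with Pearson's r between 0.99902 and 0.99977 over 6 libraries. CHUK, a kinase of the NF-kappaB pathway, stood at 12.1, 24.7 and 27.9 CPM in APEX1-OE and 12.97, 13.1 and 22.3 CPM in Ctrl, replicates 1, 2 and 3. GBP3, an interferon-inducible GTPase, stood at 7.73, 18.7 and 23.3 CPM in APEX1-OE and 8.76, 8.44 and 17.2 CPM in Ctrl. These 5 genes were high in set 2 and low in set 1, and their GC contents of 37.4% to 40.9% were below the median of the genes tested. An r of at least 0.95 was reached by 2704 of 16967 genes (15.9%) and by 19 of the 50 effectors, so a profile like that of the IFIT genes was shared widely.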

How the data were processed

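RNA-seq was analysed from 6 libraries of A549 cells, 3 APEX1-OE and 3 Ctrl, grouped by the sample labels. Per the labels and methods, the authors used the FASTX-Toolkit for trimming and TopHat2 for alignment to GRCh38, and kept uniquely mapped reads. They deposited raw counts per gene and FPKM, rounded to 2 decimals by the authors. The library kit was stranded, but the sources used here do not give the counting tool, its annotation or whether it used the strand.

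Counts were filtered with filterByExpr (minimum count 10, minimum total 15), normalised by TMM and tested in edgeR 4.0.16 (R 4.3.3) by its robust quasi-likelihood F-test, condition as the only term, and Benjamini-Hochberg adjustment over all genes at 0.05. CPM values used TMM library sizes, except in the sums over markers. Correlations used log2 CPM with a prior count of 2. Gene models came from GENCODE on GRCh38, in which 31231 of 32192 identifiers matched, and promoters from RefSeq. DESeq2 1.42.0, limma 3.58.1 on log2(FPKM + 1) and log2(FPKM + 0.1), other filters, a replicate block and leaving out each library were tried. The library set as a term and the GC and length offset (a spline with 5 degrees of freedom for each) were chosen after seeing the data, as were ratios between members.

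The members and gene lists were chosen with earlier results of these data known. The genes named are the IFIT genes, IFIT1B, APEX1, genes overlapping or near the cluster, tested genes of the pathway lists, the 5 effectors with the largest and 3 with the smallest log2 difference, list genes with an adjusted p under 0.05, and the 6 genes most like the family mean. Some of these genes are not reported here. OAS2, DDX60 and ISG15 between the sets, CMTR1 and the marker genes were named after their values were seen.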

Additional observations from a re-analysis of the deposited data

How the results depend on the processing

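The mean log2 difference of the IFIT genes, known when they were chosen, was 0.39. It ran from 0.063 with the library set as a term to 0.68 without Ctrl replicate 3. The SD of the family mean between replicates was 0.525, and the mean hides members that turned. IFIT1 was at -0.17 with the library set as a term, -0.072 without APEX1-OE replicate 3, and -0.087 with the offset and the set. IFIT5 was at -0.011 with the library set as a term. The number of genes called was 1 with the condition alone. It was 10 (7 higher, 3 lower) without a filter on low counts, 2 with limma on log2(FPKM + 0.1), 4 with the library set as a term, 20 (19 higher, 1 lower) with the GC and length offset and the library set, and between 0 and 1 with each library left out, being 0 without APEX1-OE replicates 2 or 3 or Ctrl replicates 1 or 2. The median difference of the pathway genes was 0.16. It was 0.11 in limma-voom (0.105), 0.112 in limma on log2(FPKM + 1) with or without a filter, 0.119 with a pseudocount of 0.1, 0.0681 with the GC and length offset, 0.119 with that offset and the library set, and between 0.00072 and 0.18 with each library left out. The number of pathway genes called rose from 0 to 1 with the library set as a term and to 2 with the offset as well. The order of the IFIT levels held in 83.3% of libraries in FPKM and in 50% in CPM per kb. The number of genes with a correlation of at least 0.95 with the family mean was 2704, and 603 with Spearman's measure. The causes were not tested.

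Same-numbered libraries of the groups had correlations of deviations of 0.607, -0.521 and 0.7 for replicates 1, 2 and 3. Replicates 1 and 3 fell in the same library set in both groups and replicate 2 did not. These values therefore cannot tell whether the numbers pair the libraries. With the replicate block 2 genes were called (1 higher, 1 lower) and the pathway median was 0.112. The standard errors of IFIT1, IFIT2, IFIT3 and IFIT5 were then 0.19, 0.19, 0.19 and 0.21. With the condition alone they were 0.35, 0.40, 0.30 and 0.32. Of the values computed under the alternatives, 160 stayed within the spread or within 1.5 times and 24 moved further. The spread was wide, and all these values come from the same 6 libraries, so the count does not measure stability. The family mean of 0.063 and the IFIT1 difference of -0.17, with the library set as a term, were among the 160. With 3 libraries a group and a set difference across the groups, the standard errors of the IFIT differences limit what can be told.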
